A study of Homo sapiens with 4 samples.

Results

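The PI3K-AKT pathway genes of B cells described here are PIK3CD, PIK3CG, PIK3R1, PIK3R5, PIK3AP1, INPP5D, AKT1, AKT2 and PDPK1. They were chosen by name for their place in the pathway, and they are 9 of the 41507 genes in the gene table and hold 46 of the 67765 transcripts in the transcript table. RNA was sequenced from SU-DHL-5 and Toledo, established cell lines of diffuse large B-cell lymphoma (DLBCL), after treatment with the vehicle DMSO or with JQ1 at 1 µM. JQ1 is a small molecule that occupies the bromodomains of BET proteins and so displaces these readers of acetylated histones from chromatin. The labels give 6 h of treatment for all 4 samples, and the study's description of the sequencing gives 8 h. There was 1 sample of each line and treatment, each with 2 library columns, and DLBCL is represented by these 2 lines alone.

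Class I PI3K is a pair of a catalytic and a regulatory subunit that phosphorylates a membrane lipid to make PIP3 when a receptor is engaged. PIP3 recruits the kinases PDPK1 and AKT to the membrane, where PDPK1 phosphorylates AKT, and lipid phosphatases such as INPP5D remove PIP3 again. In B cells the delta catalytic subunit acts downstream of the B cell receptor, and the pathway is known for its part in survival, growth and migration of these cells.

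To show the DNA in front of the 3 members that were lower with JQ1 in SU-DHL-5, and of PDPK1, whose JQ1 libraries lay above DMSO in both lines by less than 1.5-fold, the RefSeq promoters (GRCh38.p14, 250 bases before to 50 bases after a transcription start) were read. All 9 members matched, with 17 promoters. The window of PIK3CD is chr1:9651481-9651780 on the plus strand, that of INPP5D chr2:233060092-233060391 on the plus strand, that of PIK3AP1 chr10:96720465-96720764 on the minus strand and that of PDPK1 chr16:2537771-2538070 on the plus strand. The sequences run 5′ to 3′ on the strand of the gene, and capitals mark matches to any of 6 short motifs on either strand.
PIK3CD: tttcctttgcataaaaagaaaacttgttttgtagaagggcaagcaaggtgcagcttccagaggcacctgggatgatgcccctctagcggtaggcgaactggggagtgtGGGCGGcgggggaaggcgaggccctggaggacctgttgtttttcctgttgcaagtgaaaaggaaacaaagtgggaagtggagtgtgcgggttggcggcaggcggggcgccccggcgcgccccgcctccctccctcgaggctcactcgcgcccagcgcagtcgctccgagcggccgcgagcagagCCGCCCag
INPP5D: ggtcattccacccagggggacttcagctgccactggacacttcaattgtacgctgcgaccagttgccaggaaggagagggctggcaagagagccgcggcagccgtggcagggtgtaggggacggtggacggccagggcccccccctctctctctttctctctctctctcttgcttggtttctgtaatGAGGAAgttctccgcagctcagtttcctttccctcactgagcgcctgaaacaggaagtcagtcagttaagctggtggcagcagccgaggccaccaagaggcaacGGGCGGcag
PIK3AP1: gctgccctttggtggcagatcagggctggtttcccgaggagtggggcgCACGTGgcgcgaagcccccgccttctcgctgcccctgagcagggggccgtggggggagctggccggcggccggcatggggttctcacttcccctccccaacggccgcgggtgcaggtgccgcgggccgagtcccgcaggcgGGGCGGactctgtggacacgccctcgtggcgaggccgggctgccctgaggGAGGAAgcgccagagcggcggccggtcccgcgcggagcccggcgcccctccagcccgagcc
PDPK1: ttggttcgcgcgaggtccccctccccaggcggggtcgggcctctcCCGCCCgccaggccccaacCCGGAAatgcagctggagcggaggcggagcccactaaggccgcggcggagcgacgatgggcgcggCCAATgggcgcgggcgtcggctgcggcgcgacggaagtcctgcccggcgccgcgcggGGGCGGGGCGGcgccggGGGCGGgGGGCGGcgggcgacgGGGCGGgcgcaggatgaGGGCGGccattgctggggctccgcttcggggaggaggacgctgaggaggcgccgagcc
The motifs were the E-box CACGTG, which MYC and MAX bind, the GC box GGGCGG, the CCAAT box CCAAT, the ETS core CCGGAA, the PU box GAGGAA and the TATA box TATAAA. The E-box reads the same on both strands, GC boxes that share bases run together in capitals, and the ETS core and the PU box are both built on GGAA. The PIK3CD window held 2 GC boxes, and the INPP5D window held 1 GC box and 1 PU box. The PIK3AP1 window held 1 E-box, 1 GC box and 1 PU box, and it was the only one of the 17 member promoters with this E-box. The PDPK1 window held 7 GC boxes, 1 CCAAT box and 1 ETS core. PIK3R1, whose JQ1 libraries also lay above DMSO in both lines by less than 1.5-fold, is not shown. Its window at chr5:68215506-68215805 on the plus strand held 5 GC boxes and 1 PU box. Of all 35116 RefSeq promoters, 7.26% held the E-box, 45.0% the GC box, 34.6% the CCAAT box, 17.2% the ETS core, 27.9% the PU box and 11.5% the TATA box. The G and C content was 63.3% for PIK3CD, 60.3% for INPP5D, 77% for PIK3AP1 and 80% for PDPK1, against a median of 58.7% over all promoters.

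The libraries held 14617583 to 17679831 mapped reads, which limits the precision of the low genes. The 2 library columns of a sample were averaged and not treated as replicates, so differences carry no p-value and were not checked in replicates. A gene with a mean of at least 1 RPKM (a gene's reads divided by its length and by library size) in the higher group was called lower or higher when both libraries of a group lay outside those of the other and the means differed at least 1.5-fold on the log2(RPKM + 0.1) scale. Between the libraries of a sample, 0.391% to 1.34% of genes differed 1.5-fold or more. A chi-square of the reads of the 2 libraries is near 1 per gene when only counting error is present. It averaged 8.04 in SU-DHL-5 with DMSO, 2.13 with JQ1, 18.2 in Toledo with DMSO and 5.27 with JQ1. The intervals of counting error below thus leave out part of the spread between libraries. The Toledo DMSO libraries stood apart most. Their ratio of library 2 to library 1 followed the length of the gene's transcript, with a Spearman rho of 0.62 over 9467 genes from 1 pair of libraries. Whether length accounts for the spread was not tested. All 4 B cell markers read were above 1 RPKM in every group, with a summed level of 885 RPKM in SU-DHL-5 with DMSO, 613 with JQ1, 867 in Toledo with DMSO and 601 with JQ1. The 5 T cell markers summed to 1.12, 0.0827, 0.0770 and 0 RPKM in the same order, with CD2 and TRBC1 at 0 in all groups. The 5 myeloid markers summed to 1.34, 0.299, 0.208 and 0.134 RPKM, with FCGR3A at 0 in all groups. Most of the SU-DHL-5 sums with DMSO came from CD3E (1.01 RPKM, 50 reads) and LYZ (1.15 RPKM, 57 reads). Both were called lower with JQ1 in SU-DHL-5, with log2 ratios of -2.61 (4 reads with JQ1) and -2.35 (7 reads with JQ1). They passed the filter only through DMSO, so they could only be called lower. Of the B cell markers, MS4A1 (log2 ratio of JQ1 over DMSO -1.99 for SU-DHL-5 and -1.47 for Toledo) and CD79A (-0.71 and -0.76) were lower with JQ1 in both lines. PAX5 was lower in SU-DHL-5 (-0.64) and overlapped in Toledo (0.27), and CD79B overlapped in SU-DHL-5 (0.01) and was not called in Toledo (-0.28). The part of these differences in those of the members below was not tested. In bulk RNA, fewer cells of a type and less RNA per cell cannot be told apart, and RPKM gives a share of the library and not an amount per cell.

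In vehicle-treated cells, the levels of the 9 genes spanned from 0 to 52.6 RPKM. In SU-DHL-5 with DMSO the mean levels fell in the order AKT1 37.0, PIK3AP1 34.7, INPP5D 28.7, AKT2 24.0, PIK3CD 9.24, PDPK1 5.62, PIK3CG 5.15, PIK3R1 3.08 and PIK3R5 0 RPKM. No neighbours in this order overlapped in their libraries. In Toledo with DMSO the order was PIK3AP1 52.6, INPP5D 41.6, PIK3CD 36.6, AKT1 36.2, AKT2 18.8, PIK3R1 6.01, PDPK1 3.85, PIK3CG 3.84 and PIK3R5 0.0421 RPKM. Here PIK3CD could not be separated from AKT1, nor PDPK1 from PIK3CG. AKT1 was thus the highest member in SU-DHL-5, and the B cell adaptor PIK3AP1 in Toledo. With JQ1, AKT1 was the highest member of both lines, at 36.6 RPKM in SU-DHL-5 and 32.6 RPKM in Toledo. In the JQ1 sample of SU-DHL-5, PIK3CD (4.50 RPKM) and PIK3R1 (4.42 RPKM) overlapped, and no other neighbours did in either JQ1 sample.

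**Figure D1:**
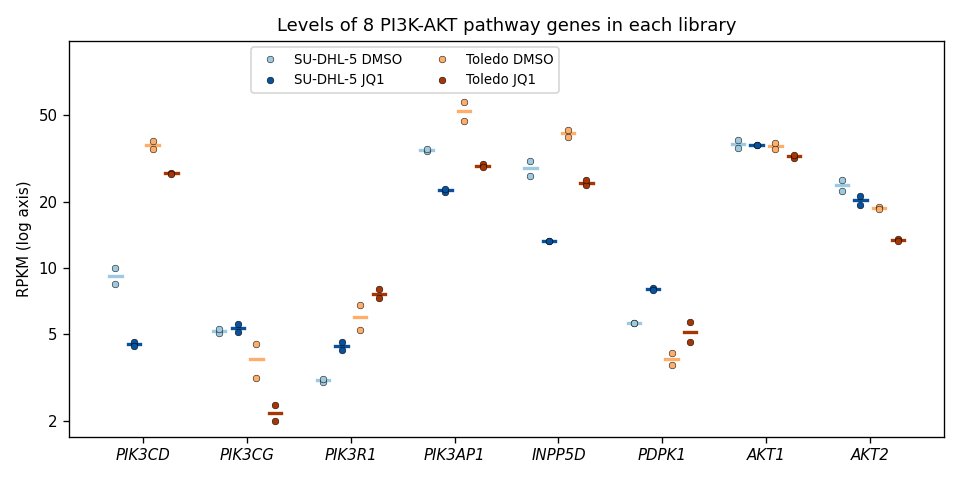
Level of 8 members in each library, in RPKM on a log axis, with a point per library, a bar at the mean of the 2 libraries and a colour for each line and treatment. PIK3R5 is left out because it was at 0 in SU-DHL-5 and below 0.08 RPKM in Toledo. PIK3CD stands apart between the lines, and INPP5D and PIK3AP1 lie lower with JQ1 in both.

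JQ1 was compared with DMSO within each line to ask which parts of the pathway differed after BET inhibition. In SU-DHL-5, 3 of the 8 members that passed the level filter were lower with JQ1, namely PIK3CD, PIK3AP1 and INPP5D, and 0 were higher. Of all 9316 genes tested there, 12.9% were lower and 9.01% higher. In Toledo, 3 of 8 were lower, namely PIK3CG, PIK3AP1 and INPP5D, and 0 were higher, against 17.2% lower and 6.98% higher of 9646 genes. PIK3R5 did not pass the filter in either line. The median log2 ratio of the 9 members was -0.02 for SU-DHL-5 and -0.43 for Toledo, beside 0.02 and -0.07 for all genes tested. Over the 8 members that passed, the medians were -0.12 and -0.45. With a limit of 2-fold, 2 members were lower in SU-DHL-5 (PIK3CD and INPP5D) and 0 in Toledo.

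**Figure D2:**
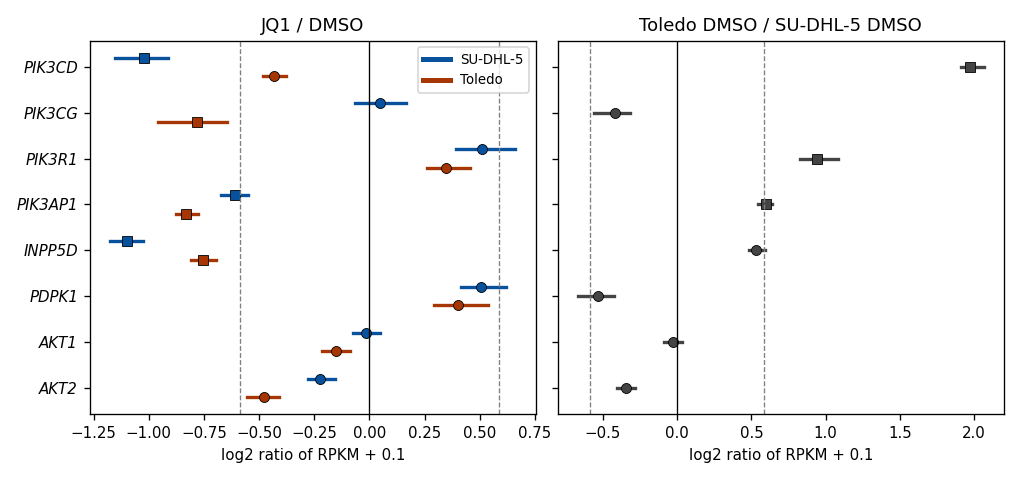
Log2 ratio of RPKM + 0.1 for 8 members, with JQ1 over DMSO on the left (SU-DHL-5 blue, Toledo brown) and Toledo over SU-DHL-5 in DMSO on the right. Bars are 95% intervals of counting error only, squares mark called members and dashed lines mark 1.5-fold. INPP5D and PIK3AP1 lie left of the dashed line in both lines, and PIK3R1 and PDPK1 lie right of 0 in both.

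PIK3CD, the delta catalytic subunit that leucocytes rely on, lies at chr1:9629889-9729114 on the plus strand (GRCh38). Its libraries read 10.0 and 8.47 RPKM with DMSO and 4.59 and 4.41 RPKM with JQ1 in SU-DHL-5. Both JQ1 libraries were thus far below both DMSO libraries, with a log2 ratio of -1.02 (95% interval of counting error -1.15 to -0.91), which is a change of -51.3% in the mean. In Toledo they read 35.2 and 38.0 RPKM with DMSO and 27.3 and 27.0 RPKM with JQ1, a log2 ratio of -0.43 (-0.48 to -0.38). The Toledo JQ1 libraries also lay below DMSO without overlap, but the change of -25.9% was under 1.5-fold. Whether the ratio differed between the lines was not tested, since each line has 1 sample per treatment. Exons of CLSTN1 on the other strand overlap 89 bases of PIK3CD, and CLSTN1 stood at 39.3 RPKM with DMSO and 44.9 RPKM with JQ1 in SU-DHL-5. It stood at 18.0 RPKM with DMSO and 16.7 RPKM with JQ1 in Toledo, and its part in the level of PIK3CD was not tested.

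The 7 PIK3CD transcripts in the table differ mainly at the 5′ end and share most of their bases, so reads are divided among them with little to go by. PIK3CD_2, which begins at the RefSeq start of the window shown above, had the highest mean. Its libraries read 4.66 and 1.83 RPKM with DMSO in SU-DHL-5 and 1.57 and 3.16 RPKM with JQ1, so the treatments overlapped. In Toledo they read 14.7 and 15.2 RPKM with DMSO and 11.1 and 8.67 RPKM with JQ1. PIK3CD_3 and PIK3CD_5, which begin at or within 3 bases of the same start, had log2 ratios of -1.21 and -1.23 for SU-DHL-5, both without overlap, and -0.23 and -0.67 for Toledo, where PIK3CD_3 overlapped. PIK3CD_4 read 1.15 and 1.99 RPKM with DMSO in SU-DHL-5 and was listed at 0 in both JQ1 libraries. PIK3CD_7 begins 80216 bases downstream of the most upstream start. It took 12.99% of the PIK3CD signal in Toledo with DMSO and 17.9% with JQ1, against 4.09% and 5.15% in SU-DHL-5. Its Toledo libraries of 5.89 and 4.89 RPKM with DMSO and 4.98 and 6.05 RPKM with JQ1 overlapped, unlike those of the whole gene.

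PIK3CG, the gamma catalytic subunit that acts with G protein-coupled receptors such as those for chemokines, lies at chr7:106865278-106908978 on the plus strand. In SU-DHL-5 it read 5.03 and 5.28 RPKM with DMSO and 5.56 and 5.10 RPKM with JQ1, so the treatments overlapped, with a log2 ratio of 0.05 (-0.06 to 0.17). In Toledo it read 3.15 and 4.52 RPKM with DMSO and 2.01 and 2.37 RPKM with JQ1, a log2 ratio of -0.78 (-0.96 to -0.64). PIK3CG was therefore called lower with JQ1 in Toledo and not in SU-DHL-5, and the difference between the lines was not tested. The Toledo DMSO libraries were themselves 0.51 apart in log2 ratio for this gene of 7377 bases, and library 1 alone gave a JQ1 ratio of -0.62. Of its 5 transcripts, PIK3CG_5, with a start 201 bases downstream, read 1.31 and 0.907 RPKM with DMSO and 0.134 and 0.161 RPKM with JQ1 in SU-DHL-5. The Toledo libraries read 0.643 and 0.683 RPKM with DMSO and 0 and 0.138 RPKM with JQ1. Its JQ1 libraries lay below DMSO in both lines, with log2 ratios of -2.28 and -2.18. PIK3CG_2, the most abundant, lay above DMSO in SU-DHL-5 (0.61) and below it in Toledo (-0.47). PIK3CG_1 overlapped between treatments in both lines, at 0.08 and -0.72, and PIK3CG_3 held 17.5% of the signal in SU-DHL-5 with JQ1 and was listed at 0 in both Toledo DMSO libraries. PIK3CG_1 and PIK3CG_2 have the same ends, and reads from bases that the transcripts share cannot be told apart.

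PIK3R1 encodes the main regulatory subunit, which binds and steadies the catalytic subunits of class IA, and lies at chr5:68215756-68301821 on the plus strand. Its libraries read 3.03 and 3.13 RPKM with DMSO and 4.62 and 4.23 RPKM with JQ1 in SU-DHL-5, which gave a log2 ratio of 0.51 (0.39 to 0.66). In Toledo they read 5.19 and 6.83 RPKM with DMSO and 8.04 and 7.29 RPKM with JQ1, a log2 ratio of 0.35 (0.26 to 0.46). The JQ1 libraries lay above DMSO in both lines, opposite in direction to PIK3CD, and neither difference reached 1.5-fold. Library 1 alone gave 0.59 in SU-DHL-5 and 0.62 in Toledo, both past 1.5-fold, and library 2 alone gave 0.42 and 0.09. Genes of similar length to PIK3R1, whose feature has 7665 bases, had a median log2 ratio of 0.15 for SU-DHL-5 and 0.02 for Toledo, and the SU-DHL-5 ratio was 0.36 relative to them. PIK3R1_1, the full-length transcript, held 96.5% of the PIK3R1 signal in SU-DHL-5 with DMSO, 97.2% with JQ1, 84.3% in Toledo with DMSO and 97.6% with JQ1. It had log2 ratios of 0.52 and 0.56, both without overlap. PIK3R1_2, with a start 21 bases further on, read 1.21 and 0.867 RPKM in Toledo with DMSO and 0 and 0.285 RPKM with JQ1. PIK3R1_1 and PIK3R1_2 end at the same base, so reads from their shared part cannot be told apart.

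PIK3R5, the regulatory partner of the gamma subunit, lies at chr17:8878916-8965712 on the minus strand and was hardly detected. It had 0 reads in all 4 libraries of SU-DHL-5, where 3 reads in the 2 libraries of a sample would be 0.0194 RPKM with DMSO and 0.0204 RPKM with JQ1. In Toledo, 6 and 1 reads with DMSO (0.0713 and 0.0129 RPKM) and 3 and 2 reads with JQ1 (0.0388 and 0.0261 RPKM) were seen. A difference was not detectable at this depth. The reads in Toledo fell on PIK3R5_2 and PIK3R5_8, and PIK3R6, the other gamma partner, was at 0 RPKM in all 8 libraries. PIK3CG was thus measured at 2.01 to 5.56 RPKM in cells in which neither of its known partners reached 0.08 RPKM.

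PIK3AP1, the adaptor known as BCAP that links the B cell receptor to PI3K, lies at chr10:96593312-96720522 on the minus strand. In SU-DHL-5 it read 34.4 and 35.0 RPKM with DMSO and 22.3 and 23.1 RPKM with JQ1, a log2 ratio of -0.61 (-0.67 to -0.55). In Toledo it read 47.4 and 57.7 RPKM with DMSO and 30.1 and 28.9 RPKM with JQ1, a log2 ratio of -0.83 (-0.88 to -0.78). The JQ1 libraries lay well below DMSO in both lines, with changes of -34.5% and -43.8% in the mean, although the SU-DHL-5 difference of 1.53-fold was only just past the limit. In Toledo, library 1 alone gave -0.65 and library 2 alone -0.99, both outside the interval of counting error and both past 1.5-fold.

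The transcripts of PIK3AP1 divided these levels in a different way in each line. PIK3AP1_1 runs from the annotated start, with its 5′ end 8 bases from that of the nearest GENCODE transcript. PIK3AP1_2 begins 19615 bases downstream, at a place that lies in no GENCODE exon, and PIK3AP1_3 begins 50911 bases downstream. All 3 end at the same base, so reads from their shared 3′ part cannot be told apart. In SU-DHL-5, PIK3AP1_2 read 25.6 and 27.4 RPKM with DMSO and 10.3 and 12.9 RPKM with JQ1, a log2 ratio of -1.18 (-1.29 to -1.12). PIK3AP1_1 read 11.9 and 9.72 RPKM with DMSO and 12.1 and 12.3 RPKM with JQ1, a log2 ratio of 0.17 (0.09 to 0.28). The lower level of the gene in SU-DHL-5 was therefore assigned to PIK3AP1_2, whose share of the signal was 68.6% with DMSO and 46.9% with JQ1, while the share of PIK3AP1_1 was 28.0% and 49.3%. In Toledo, PIK3AP1_1 held 80.3% with DMSO and 82.5% with JQ1. It read 39.1 and 50.3 RPKM with DMSO and 25.9 and 25.6 RPKM with JQ1, a log2 ratio of -0.79 (-0.85 to -0.73). PIK3AP1_2 was a minor transcript in Toledo, at 4.71 and 0 RPKM with DMSO and 2.86 and 2.22 RPKM with JQ1, and its treatments overlapped. PIK3AP1_3 read 6.53 and 10.7 RPKM with DMSO and 3.04 and 2.77 RPKM with JQ1 in Toledo, and at most 2.01 RPKM in any SU-DHL-5 library.

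**Figure D3:**
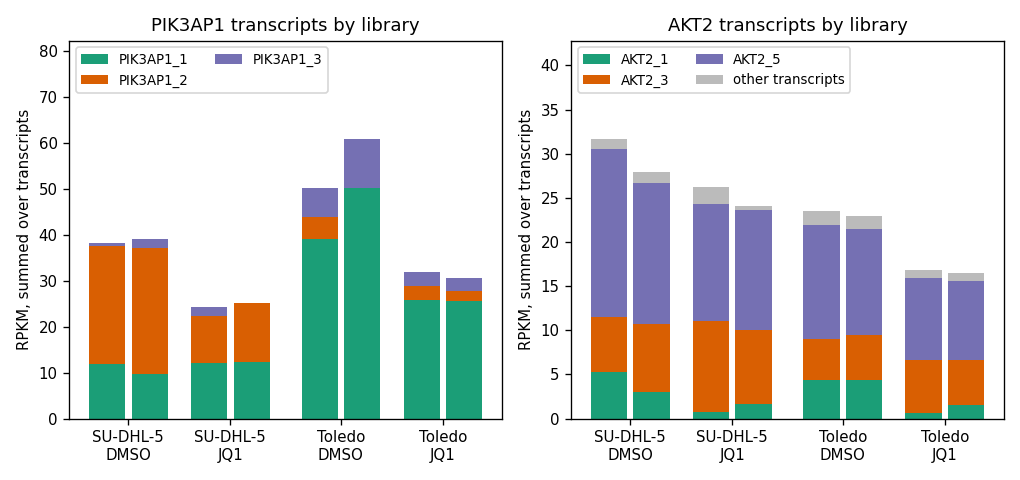
RPKM of the transcripts of PIK3AP1 (left) and AKT2 (right), stacked in each of the 8 libraries, with a bar per library and a colour per transcript. PIK3AP1_2 makes up most of the SU-DHL-5 bars with DMSO and little of the Toledo bars, and AKT2_1 is smaller with JQ1 in both lines.

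INPP5D, the lipid phosphatase SHIP1 that turns PIP3 over and restrains B cell receptor signalling, lies at chr2:233060326-233207903 on the plus strand. It read 31.0 and 26.4 RPKM with DMSO and 13.3 and 13.4 RPKM with JQ1 in SU-DHL-5, which gave a log2 ratio of -1.10 (-1.18 to -1.02). The Toledo libraries read 40.0 and 43.1 RPKM with DMSO and 24.0 and 25.2 RPKM with JQ1, a log2 ratio of -0.75 (-0.81 to -0.70). In both lines INPP5D RNA was thus a smaller share of the library with JQ1, with changes of -53.5% and -40.8% in the mean. In SU-DHL-5, INPP5D had the lowest ratio of the 8 members. Its 2 transcripts have the same ends and differ by 3 bases in length (4918 and 4915), and both lay below DMSO without overlap in each line. INPP5D_1 had log2 ratios of -1.30 and -0.66, and INPP5D_2 of -0.83 and -0.85.

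PDPK1, the kinase that phosphorylates AKT in its activation loop, lies at chr16:2537964-2603190 on the plus strand. In SU-DHL-5 it read 5.64 and 5.60 RPKM with DMSO and 8.11 and 7.95 RPKM with JQ1, a log2 ratio of 0.51 (0.41 to 0.62). In Toledo it read 3.62 and 4.09 RPKM with DMSO and 5.66 and 4.58 RPKM with JQ1, a log2 ratio of 0.40 (0.29 to 0.54). The JQ1 libraries lay above DMSO in both lines, as for PIK3R1, and neither mean reached 1.5-fold. Library 1 alone gave 0.63 in Toledo and library 2 alone 0.16, and relative to genes of similar length the SU-DHL-5 ratio was 0.36. PDPK1 has a near-identical copy, PDPK2P, that had no value under this name, so the level of PDPK1 is uncertain to the extent that reads were shared. In GENCODE, 2 antisense genes overlap 748 and 1838 of the exonic bases of PDPK1, and they had no value under their GENCODE names either. PDPK1_1 held 84.8% of the signal in SU-DHL-5 with DMSO, 88.3% with JQ1, 83.5% in Toledo with DMSO and 80.8% with JQ1, and PDPK1_4 held 8.33% to 14.3%.

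AKT1, the most widely expressed AKT kinase, lies at chr14:104769349-104795743 on the minus strand and was the most even member. It read 38.5 and 35.5 RPKM with DMSO and 36.7 and 36.5 RPKM with JQ1 in SU-DHL-5, where the treatments overlapped (log2 ratio -0.02, interval -0.07 to 0.05). The Toledo libraries read 35.0 and 37.4 RPKM with DMSO and 32.1 and 33.1 RPKM with JQ1, a log2 ratio of -0.15 (-0.21 to -0.09) that was not called. An antisense gene that had no value under its GENCODE name overlaps 663 of the exonic bases of AKT1. AKT1_1 held 69.1% to 79.7% of the signal in the 4 groups and overlapped between treatments in both lines. AKT1_2 overlapped in SU-DHL-5 and read 7.72 and 9.63 RPKM with DMSO and 5.42 and 3.88 RPKM with JQ1 in Toledo (-0.88). AKT1_4, at 10.7% of the signal in Toledo with DMSO, had log2 ratios of -0.82 with overlap and -0.67 without. AKT1_1 and AKT1_2 have the same ends, and reads from bases that the transcripts share cannot be told apart.

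AKT2, the AKT kinase known for its part in glucose uptake, lies at chr19:40230317-40285536 on the minus strand. It read 25.4 and 22.5 RPKM with DMSO and 21.5 and 19.6 RPKM with JQ1 in SU-DHL-5, which gave a log2 ratio of -0.22 (-0.28 to -0.15). In Toledo it read 19.0 and 18.6 RPKM with DMSO and 13.6 and 13.3 RPKM with JQ1, a log2 ratio of -0.48 (-0.55 to -0.41). The JQ1 libraries lay below DMSO in both lines by less than 1.5-fold. Among its 8 transcripts, AKT2_1 and AKT2_3 have the same ends and lengths of 5170 and 5300 bases, and AKT2_3 has the start and the length of a GENCODE transcript. Reads from the bases that they share cannot be told apart, so the levels below depend on how such reads were divided, which the intervals do not cover. AKT2_1 read 5.32 and 2.996 RPKM with DMSO and 0.762 and 1.60 RPKM with JQ1 in SU-DHL-5, and 4.42 and 4.41 RPKM with DMSO and 0.607 and 1.49 RPKM with JQ1 in Toledo. These are log2 ratios of -1.73 (-2.07 to -1.60) and -1.98 (-2.32 to -1.84), both without overlap. AKT2_3 went the other way, at 6.19 and 7.74 RPKM with DMSO and 10.3 and 8.48 RPKM with JQ1 in SU-DHL-5, and 4.62 and 5.01 RPKM with DMSO and 6.06 and 5.11 RPKM with JQ1 in Toledo. Its log2 ratios were 0.43 and 0.21, under 1.5-fold. Its share of the AKT2 signal was 23.4% with DMSO and 37.4% with JQ1 for SU-DHL-5, and 20.7% and 33.5% for Toledo. AKT2_5, the most abundant, held 53.4% to 58.8% in the 4 groups and had log2 ratios of -0.38 and -0.45.

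Vehicle-treated Toledo was compared with vehicle-treated SU-DHL-5 to set the pathway of the lines side by side. This comparison uses the same DMSO samples as those above. In Toledo 3 of 8 members were higher, PIK3CD, PIK3R1 and PIK3AP1, and 0 were lower, against 27.1% higher and 24% lower of the 10078 genes tested. PIK3CD was 3.96-fold higher in Toledo, at 36.6 ± 1.97 RPKM (SD of 2 libraries of 1 sample) against 9.24 ± 1.08 RPKM, and the lowest Toledo library was above the highest of SU-DHL-5 by a wide margin. PIK3R1 was 1.95-fold higher (log2 0.94, 0.83 to 1.08). PIK3AP1 was 1.52-fold higher (0.60, 0.55 to 0.64), just past the limit, and was not called with library 1 alone (0.46) or from the summed transcripts (0.53). INPP5D lay above SU-DHL-5 by 1.45-fold (0.53) and was not called. PDPK1 (-0.53), PIK3CG (-0.42) and AKT2 (-0.35) lay below SU-DHL-5 without overlap and were not called, and AKT1 overlapped (-0.03). Of these, INPP5D passed the limit with library 2 alone (0.70), PIK3CG with library 1 alone (-0.66), and PDPK1 with library 1 alone (-0.63) and when centred on genes of similar length (-0.66). The median over the 9 members, 0.51, is the value of PIK3R5, which rests on the added 0.1 RPKM, and over the 8 members that passed it was 0.25, beside 0.00 for all genes.

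The balance of the members within a library was also read, as it does not depend on the library total. Among the 4 class I catalytic subunits (PIK3CA, PIK3CB, PIK3CD and PIK3CG), PIK3CD held 42.0% and 36.8% of the summed RPKM in the SU-DHL-5 libraries with DMSO and 20.9% and 20.2% with JQ1. In Toledo it held 74.2% and 71.2% with DMSO and 64.2% and 64.3% with JQ1. PIK3CD was thus the leading catalytic subunit in Toledo under both treatments, and also in SU-DHL-5 with DMSO. There it stood at 9.24 RPKM, against 5.20 RPKM for PIK3CA, 3.83 RPKM for PIK3CB and 5.15 RPKM for PIK3CG. In SU-DHL-5 with JQ1 the other 3 stood level with or above it, at 7.49 RPKM for PIK3CA, 4.59 RPKM for PIK3CB and 5.33 RPKM for PIK3CG. PIK3CD over PIK3R1 was 3.30 and 2.71 with DMSO and 0.993 and 1.04 with JQ1 in SU-DHL-5, and 6.78 and 5.57 with DMSO and 3.39 and 3.70 with JQ1 in Toledo. The ratio of INPP5D to PIK3CD moved less, at 3.10 and 3.12 against 2.91 and 3.03 in SU-DHL-5, and 1.14 and 1.13 against 0.880 and 0.934 in Toledo. AKT1 over AKT2 was 1.51 and 1.58 with DMSO and 1.71 and 1.87 with JQ1 for SU-DHL-5, and 1.85 and 2.01 with DMSO and 2.35 and 2.48 with JQ1 for Toledo. The JQ1 libraries had the higher ratio in both lines, without overlap.

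A list of 46 other genes of the pathway placed the members in their surroundings. In SU-DHL-5, 6 of the 35 that passed the filter were lower with JQ1 and 7 higher, and in Toledo 7 of 42 were lower and 6 higher. Of all genes tested, 12.9% were lower and 9.01% higher in SU-DHL-5, and 17.2% lower and 6.98% higher in Toledo, so the share of the list that was lower in Toledo was near that of all genes. The median log2 ratios of the list were 0.22 and 0.10, beside 0.02 and -0.07 for all genes. At the membrane, PIK3IP1, which inhibits the catalytic subunits, had log2 ratios of -0.42, not called, and -0.85, called lower. In Toledo it passed the filter only through DMSO (1.82 RPKM, against 0.960 RPKM with JQ1), so it could only be called lower there. The regulatory subunit PIK3R3 was higher in SU-DHL-5 (0.85) and overlapped in Toledo (0.10).

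Among the phosphatases, INPPL1, the relative of INPP5D known as SHIP2, was lower in both lines (-0.80 and -1.35), as INPP5D was. INPP4A, which acts on the lipid that INPP5D makes, was higher in both (1.06 and 1.01). In SU-DHL-5, INPP4A passed the filter only through JQ1 (1.39 RPKM, against 0.616 RPKM with DMSO), so it could only be called higher there. PIK3CA, PIK3CB, PIK3R2, PIK3R6 and CLSTN1 in the other paragraphs were named after their values were seen. Of the mTOR complex genes, MLST8 (-0.29 and -0.72) and RPTOR (-0.15 and -0.72) were called lower in Toledo and not in SU-DHL-5.

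Downstream of AKT, GSK3B, a kinase that AKT inhibits, was higher with JQ1 in both lines (0.95 and 0.67). EIF4EBP1, a brake on translation under mTORC1, was lower in SU-DHL-5 (-0.70) and not called in Toledo (-0.47). FOXO1, a transcription factor that AKT keeps out of the nucleus, read 8.52 and 8.41 RPKM with DMSO and 10.6 and 10.1 RPKM with JQ1 in SU-DHL-5 (0.29, not called). The Toledo libraries read 4.59 and 5.96 RPKM with DMSO and 9.01 and 9.23 RPKM with JQ1 (0.78, higher). Of the kinases that PIP3 recruits, BTK was lower in both lines (-1.26 and -0.98), as was TEC (-0.73 and -0.85). Of 10 genes known as FOXO targets, 0 were lower and 2 higher of 4 tested in SU-DHL-5, and 1 was lower and 3 were higher of 10 tested in Toledo, beside the same shares of all genes (12.9% lower and 9.01% higher, and 17.2% and 6.98%). SESN3, a stress-response gene of this list that restrains mTORC1, was higher in both lines (1.97 and 1.58). In SU-DHL-5, SESN3 passed the filter only through JQ1 (1.69 RPKM, against 0.356 RPKM with DMSO), so it could only be called higher there. IL7R, the receptor chain for interleukin-7, was lower in Toledo (-2.45) and did not pass the filter in SU-DHL-5.

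**Figure D4:**
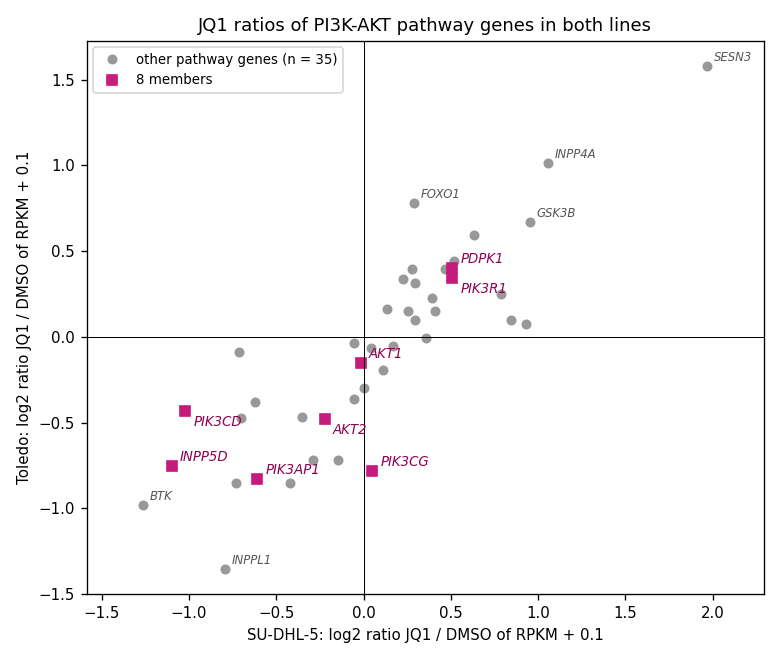
Log2 ratio of JQ1 over DMSO of RPKM + 0.1 in SU-DHL-5 (horizontal) and Toledo (vertical), for the 8 members (squares) and the 35 other pathway genes that passed the filter in both lines (grey points). INPP5D and PIK3AP1 lie in the lower left with BTK and INPPL1, and PIK3R1 and PDPK1 lie in the upper right.

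Between the lines in DMSO, 17 of 42 other pathway genes were higher in Toledo and 7 lower, beside the 27.1% and 24% of all genes given above. Several of those called higher were below 1 RPKM in SU-DHL-5, among them INPP4A (0.616), SESN3 (0.356), IL7R, KLF2, RAG1 and RAG2. They passed the filter only through Toledo and could only be called higher, so this count is not read as a result about the pathway. PIK3R2, a regulatory subunit that is no part of the 9, was at 9.87 RPKM for SU-DHL-5 and 3.48 RPKM for Toledo, the opposite order to PIK3R1.

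The genes whose levels over the 8 libraries were most like those of PIK3CD were sought among 8162 genes of at least 1 RPKM in all 4 groups, by the Euclidean distance of centred log2(RPKM + 0.1). UNC93B1, which carries nucleic acid-sensing Toll-like receptors to the endosome, lay nearest at 0.25, followed by the mitochondrial enzyme IDH2 at 0.26 and DNAJC4 at 0.38. IDH2 had mean levels of 48.2 RPKM with DMSO and 24.3 RPKM with JQ1 for SU-DHL-5, and 205 and 156 RPKM for Toledo. The 8 libraries come from 4 samples, so this likeness rests on few independent points.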

How the data were processed

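The authors sequenced stranded mRNA libraries of SU-DHL-5 and Toledo with paired ends, for 1 sample in each of 4 groups, with 2 library columns each. Their deposited tables give RPKM for genes and for transcripts, made from trimmed reads. The submitters' processing notes name CASAVA 2.0 and the builds GRCh38 and hg38. The aligner, the counting, its strand setting and the annotation are not given in the sources used here. RPKM carries no count, so the mapped reads of each library were recovered as the number that turned the RPKM of single-exon genes into whole reads, and the length of each feature as the smallest that made its 8 values whole within 0.03 reads. This gave whole reads for 14942 of 14944 genes with a value, and the step was tested on simulated data. Reads shared between transcripts cannot be assigned with certainty.

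Ratios are log2((A + 0.1)/(B + 0.1)) of the mean of the 2 libraries. Intervals are exact binomial (Clopper-Pearson, 95%) intervals of a gene's recovered reads, and intervals and floors of 3 reads cover counting error only. With 1 sample per group no test was made. Starts in the tables count from 0 and were made to count from 1. Strands and exons came from GENCODE 29 and promoters from RefSeq (GRCh38.p14). The members and lists were chosen with earlier results of these data known. Some genes of the lists are not reported here and were left out of the counts, medians and sums. Named were the 9 members, in each pathway list up to 2 genes called in at least 1 line with the largest smaller ratio of the lines where both had the same sign, FOXO1, for each member the transcript with the highest mean and those of at least 10% of its signal in any group, and the 3 genes most like PIK3CD. Alternatives varied the pseudocount, the filter, the scaling, length centring, the library, the table and the fold. The tools were Python 3.11.15 with scipy 1.17.1, pandas 2.3.3, matplotlib 3.10.9 and numpy 2.4.6.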

Additional observations from a re-analysis of the deposited data

Results flagged for a closer look

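Transcripts of 2 members had all JQ1 libraries on opposite sides of DMSO in the 2 lines. PIK3CG_2 had a log2 ratio of 0.61 in SU-DHL-5, where both JQ1 libraries (2.22 and 2.47 RPKM) lay above DMSO (1.01 and 1.99 RPKM), and of -0.47 in Toledo, where both (1.51 and 1.53 RPKM) lay below DMSO (2.17 and 2.10 RPKM). PIK3AP1_1 had a log2 ratio of 0.17 for SU-DHL-5 and -0.79 for Toledo. The difference between the lines was not tested for either transcript, because each line has 1 sample per treatment. Both levels also depend on how reads shared with other transcripts of the gene were divided.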

How the results depend on the processing

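No paired analysis was possible because each group had 1 sample and no test was made. The table headers number the libraries of a sample 1 and 2, and the ratios with library 1 or library 2 alone use these numbers. The 3 members called in SU-DHL-5, all lower, were 6 with no fold limit (4 lower and 2 higher). The 3 called in Toledo, all lower, were 5 with library 1 alone (3 lower and 2 higher, PIK3R1 and PDPK1). They were 8 with no fold limit (6 lower and 2 higher) and 0 at 2-fold. The 3 called between the lines, all higher, were 7 with no fold limit (3 lower and 4 higher) and 1 at 2-fold. The other 24 of 30 counts lay within 1.5 times. Among these, PIK3R1 was also called higher in SU-DHL-5 with library 1 alone. The median of the 9 members in SU-DHL-5 (-0.02) was -0.0345 when scaled by the median ratio, -0.101 when centred on length, -0.0692 with library 1 alone and -0.0481 with library 2 alone. The median between the lines (0.51) was 0.0596 with a pseudocount of 1 RPKM, 0.37 with library 1 alone and 0.18 with library 2 alone. The Toledo median (-0.43) moved by less than the spread between libraries. Of 168 values for single members, 124 kept their sign and lay within the interval of counting error of the ratio given above. Another 40 kept their sign and lay outside this interval, and 4 changed sign, all for members whose libraries overlapped. AKT1 was 0.0403 in SU-DHL-5 and 0.0752 between the lines with library 2 alone, and PIK3CG in SU-DHL-5 was -0.101 when centred on length and -0.0481 with library 2 alone. The cause was not tested. Scaling divided by median ratios whose log2 was 0.02 in SU-DHL-5, -0.07 in Toledo and -0.02 between the lines. Depth limits PIK3R5, and 1 sample per group limits all members.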

Other observations

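Several genes of the FOXO target list were detected in Toledo and hardly in SU-DHL-5. RAG1, RAG2 and KLF2 were named after their values were seen. RAG1 and RAG2, the recombinase genes of developing lymphocytes, read 23.1 and 30.1 RPKM and 18.3 and 22.1 RPKM in the Toledo DMSO libraries, and at most 0.0377 and 0.0226 RPKM in any SU-DHL-5 library. With JQ1 in Toledo, RAG1 read 31.4 and 25.5 RPKM and overlapped with DMSO, and RAG2 read 22.3 and 22.2 RPKM, above DMSO by less than 1.5-fold. KLF2, a transcription factor of lymphocyte trafficking, read 21.8 and 26.2 RPKM with DMSO and 56.7 and 58.9 RPKM with JQ1 in Toledo, a log2 ratio of 1.26. IL7R, the receptor chain for interleukin-7, read 9.78 and 12.5 RPKM with DMSO and 2.18 and 1.74 RPKM with JQ1, a log2 ratio of -2.45. KLF2 and IL7R thus went opposite ways in the same 4 libraries.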
